A study of Mus musculus with 13 samples.

Results

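Dense groups of CTCF sites were described in mouse embryonic limbs at E12.5. The members were chosen by the positions of wild-type CTCF peaks alone. A consensus site was a whole-limb wild-type CTCF peak on chromosomes 1 to 19 that overlapped a wild-type peak in both distal and proximal forelimb, and a chain was a series of 4 or more consensus sites whose neighbouring summits lay under 10 kb apart. By this rule 2723 of 38332 consensus sites, or 7.1%, fell into 600 chains. The zinc-finger protein CTCF recognises an asymmetric DNA motif, so that every bound site has a direction. Cohesin, a ring-shaped complex with the subunits RAD21 and SMC1, extrudes chromatin loops and is held at CTCF sites that it meets from the 3′ side of the motif, which is why loops tend to join sites whose motifs point towards each other. In the limb, CTCF sites within and around the HoxD cluster separate a centromeric from a telomeric set of enhancers, which act on Hoxd genes in digits and in the forearm.

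Each group was 1 library, so no difference between libraries has a replicate check and no test across samples was possible. Distal forelimb of wild-type CD1 embryos gave CTCF, RAD21 and SMC1 lists, and proximal forelimb of the same strain gave a CTCF list. Per the labels, tissue was fixed for 25 minutes for SMC1, 10 or 25 for RAD21 and 10 for CTCF. The CTCF list of the delHoxd(8-13)rXII allele described below is an exception, with no recorded time. RAD21 and SMC1 values may thus differ in fixation, whose part was not tested. Pooled forelimbs and hindlimbs of wild-type B6CBAF1 embryos gave whole-limb lists of CTCF and RAD21. The other lists came from B6CBAF1 embryos homozygous for 1 of 4 HoxD alleles, obtained by crossing heterozygotes: delHoxd(8-13)d11lac, delHoxd(8-13)rXII, delHoxd(1-13)d9lac and delHoxd(attP-rel5)d9lac. By their names, both delHoxd(8-13) alleles lack Hoxd8 to Hoxd13, and delHoxd(1-13)d9lac lacks Hoxd1 to Hoxd13. The name delHoxd(attP-rel5)d9lac gives no Hoxd gene as an end of its deletion. By the names, 3 of the 4 alleles carry a lac reporter. All 4 gave a CTCF list from forelimbs and hindlimbs, except that the delHoxd(8-13)rXII list was made by ChIPmentation (adapters are added by a transposase during the immunoprecipitation) from forelimbs of 4 embryos. This allele also gave a RAD21 list from forelimbs and hindlimbs, sequenced in 2 runs. The lists held 15549 to 70418 autosomal peaks, and read depth was not available for them, so a site without a peak is one at which no peak was called. Peak lists hold no expression values, so the tissue labels could not be checked against marker genes. The 2 H3K27ac samples of the series were not analysed here. Intervals below are Wilson 95% intervals, which cover counting error only, and sites of 1 chain are not independent of each other. In bulk tissue, binding in fewer cells and less binding per cell cannot be told apart.

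The sequences under the peaks show what the chains are made of. A CTCF motif of 19 bp was built from the 2000 strongest consensus summits, with TGGCCACCAGGGGGCGCCA as its most frequent letters, and the best match within 50 bp of each summit was kept where it scored at least 3.52 bits, a level passed by 5% of control windows. Motifs are printed 5′ to 3′ on their own strand from the RefSeq GRCm38.p6 sequence (mm10), with the motif in capitals and 5 bases on each side in lower case. The first set is HoxD, the locus of the deletions, whose chain sites carry different sequences.
Evx2 UTR (chr2:74655518-74655546, minus): tcctgCTGCCGCTAGGGGGCGCCCcgggg
Evx2 upstream 1 (chr2:74661992-74662020, minus): cgaggAAAACAGATGGGGGCGCCAaatga
Evx2 upstream 2 (chr2:74663738-74663766, minus): cgcgcTTGGCGCTAGATGTCCCTGcaagt
Hoxd13 side (chr2:74673169-74673197, minus): ccaaaCGCCCAGGAGATGGCGAGCgtgct
Hoxd11 intron (chr2:74686472-74686500, plus): ttctaCAGCCACACGAGGGCGCGCtcatg
Hoxd10 coding exon (chr2:74694220-74694248, minus): cttacTGATCTCTAGGCGGCGCTCgcggg
Hoxd8 side (chr2:74702387-74702415, plus): gcattTGGCCACTAGAGAGCGCTGttgct
The 2 sites upstream of Evx2 scored 4.29 and 3.75 bits, just above the limit, whereas the other 5 scored 11.5 to 23. Over the windows around their motifs, the 4 sites of the Evx2 to Hoxd13 chain were 23.8% to 34.7% identical to each other.

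The next set shows the opposite case, chains built of copies of 1 sequence.
Ifnz, first site (chr4:88773946-88773974, minus): ggggcTGGCCTGCAGGGGGAGCGCgaggg
Ezh2 side, second site (chr6:47655343-47655371, minus): cggcgCGACCGGCAGGTGTCGCCGtggaa
Pdia4 side, first site (chr6:47740220-47740248, minus): cggcgCGACCGGCAGGTGTCGCCGtggca
The Ifnz motif occurred letter for letter at 10 of the 12 sites of its chain. The capitals of the Ezh2 side and of the Pdia4 side are the same 19 letters, found at 8 of 9 sites in one chain and at 8 of 10 in the other. The last set comes from the chain at Tbx2, where the motif turns from the minus to the plus strand between neighbours.
Tbx2, site 1 (chr11:85823376-85823404, minus): ccatcCTAGCACTAGGGGGCGCTGacagc
Tbx2, site 4 (chr11:85842176-85842204, minus): cagagTGGCCAGCAGGGGGAGCCCgggcc
Tbx2, site 5 (chr11:85843397-85843425, plus): gcctgCGGACACCAGGGGGCAGCAcacgc
Tbx2, site 7 (chr11:85849262-85849290, plus): ctttcCGACCACTAGGTGGGGATCtaggg

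Most chains were short. There were 410 chains of 4 sites, 112 of 5, 49 of 6 and 19 of 7, and 10 chains held 8 sites or more. From first to last summit a chain measured 16.2 kb at the median (3.01 to 62.6 kb), and all chains together covered 10.2 Mb, or 0.415% of the autosomes. Neighbouring summits lay 4680 bp apart at the median, and 171 of 2123 gaps (8.05%) were under 1 kb. Chromosome 11 had 62 chains and 10.7% of its consensus sites in them, while chromosome 18 had 4.89%. The rule chose the sites by wild-type CTCF, so their strength is a description: the −log10 q that the authors' peak caller gave, called strength here, had a median of 25.6 at chain sites and 20.1 at other consensus sites in whole limbs. The chain in Elk3 entered with a widest gap of 9999 bp, and a series of 4 sites at Tead4 with a gap of 10002 bp did not. The widest gap of 163 chains lay within 1 kb below the limit, and 133 further series would have entered with a limit 1 kb wider. The number of chains follows from the limit, with 118 chains for summits under 5 kb apart and 1253 for summits under 15 kb apart.

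**Figure D1:**
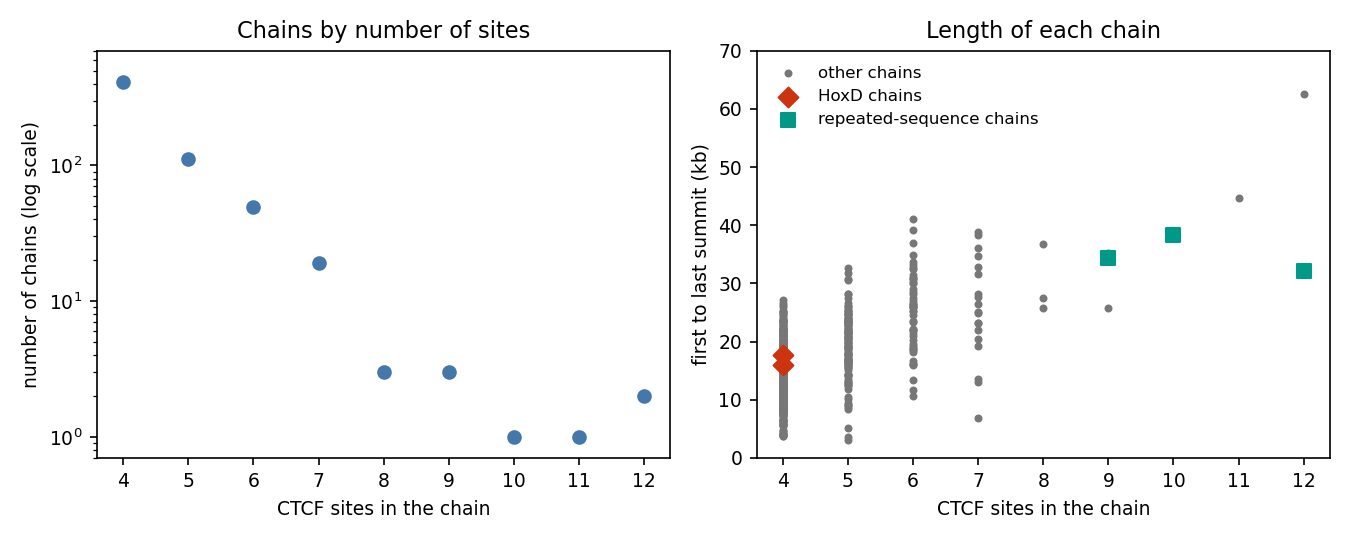
Left, number of chains (log scale) by the number of CTCF sites they hold. Right, distance from the first to the last summit in kb, with 1 point per chain: the HoxD chains (diamonds) have 4 sites each, and the chains of repeated sequence (squares, those with at least 8 copies) are the Ifnz, Ezh2 and Pdia4 side chains with 12, 9 and 10 sites.

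Chain sites resembled other CTCF sites in their place and sequence. Within 1 kb of a TSS lay 9.55% of chain sites and 8.37% of other sites, introns held 40.4% and 41.3%, and 44.4% and 46% were intergenic. A motif was found at 86.9% of chain sites (85.5 to 88.1) and 83.6% of other sites (83.2 to 84). It lay in repeat-masked sequence in 19.9% and 20.7% of them. The 200 bp around chain summits had a median GC content of 51.7%, against 48.3% elsewhere.

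Cohesin was found at fewer chain sites than at other CTCF sites when strength was weighted alike, except among the weakest sites. A whole-limb RAD21 peak lay at 1430 of 2723 chain sites, or 52.5% (50.6 to 54.4), whereas 56.1% of all consensus sites and 56.3% of those outside chains had one. Other sites weighted to the strength of the chain sites, in 20 equally filled bins of whole-limb CTCF strength, reached 60.9%, a difference of −8.36 percentage points. The distal forelimb gave the same order: RAD21 was at 37.2% of chain sites (39.3% of all sites) against 43.9% at like strength, and SMC1 at 52.9% (52.8% of all sites) against 58%. In delHoxd(8-13)rXII RAD21 was at 35.1% (37.2% of all sites) against 41.5%. Without the weighting the difference in whole-limb RAD21 was −3.81 points, and SMC1 was as frequent in chains as outside. With summits under 5 kb apart the weighted difference was −1.10 points (−5.35 to 3.15).

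The consensus sites were split into 5 equally filled bins of CTCF strength. In the weakest, with a strength up to 7.28, whole-limb RAD21 lay at 18.8% of chain sites (15.2 to 22.9) and 19.3% of other sites (18.4 to 20.2). These intervals overlap, whereas those of the other 4 bins do not. In the same weakest bin chain sites had more of the other marks: SMC1 was at 16% (12.7 to 19.9) against 10.8% (10.1 to 11.5), and distal RAD21 at 8.75% (6.36 to 11.9) against 5.74% (5.23 to 6.3). In the middle bin the shares were 46.2% (42.1 to 50.4) and 57.8% (56.6 to 58.9), and in the strongest, above 52.4, 85% (82.1 to 87.6) and 91.8% (91.1 to 92.4). Against single sites at like strength, pairs differed by −1.51 points, groups of 3 by −2.97 and chains by −9.17. Among chains the share was 55.4% in chains of 4 (62% for sites outside chains at like strength), 46.2% in chains of 5 (58%), 47.3% in chains of 6 (59.5%) and 53.7% in chains of 7 or more (61.8%). The last class includes the chains of copied sequence at Ifnz and on the Ezh2 and Pdia4 sides. These had RAD21 at 12 of 12, 9 of 9 and 8 of 10 sites, and their part in the higher share was not tested.

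**Figure D2:**
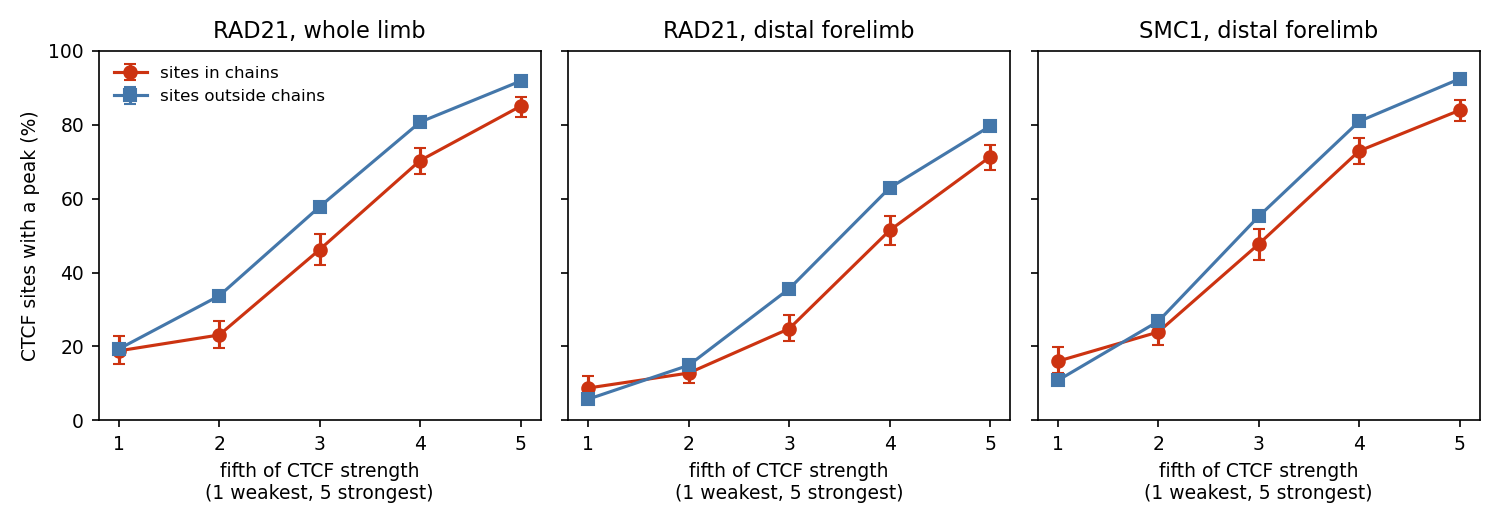
Share of CTCF sites with a peak (y axis, %) in 5 equally filled bins of whole-limb CTCF strength (x axis, 1 weakest) for whole-limb RAD21, distal RAD21 and distal SMC1, with Wilson 95% intervals as bars. Circles are sites in chains and squares other consensus sites: from bin 3 on, chain sites lie below the others in all 3 panels, as with 46.2% against 57.8% for whole-limb RAD21.

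Within a chain cohesin was patchy. Whole-limb RAD21 lay at several but not all sites in 423 of 600 chains (70.5%), at 1 site in 100, at every site in 49 and at none in 28. All 3 wild-type cohesin lists had a peak at 33.3% of chain sites (35.7% of all consensus sites), and none of them had one at 37.4% (36.5%). The strongest RAD21 peak of a chain lay on its strongest CTCF site in 304 of 572 chains, or 53.1%. After a site with RAD21 the next site had RAD21 in 53.9% of cases (51 to 56.8), and after a site without in 51.1% (48 to 54.2), so these intervals overlap. For neighbours under 2 kb apart the shares were 61.1% (55.2 to 66.7) and 47.9% (40.8 to 55), a contrast not seen at 2 to 5 kb (54.9% and 57.1%) or at 5 to 10 kb (49.2% and 48.9%). A RAD21 peak wide enough to overlap close neighbours is counted at each of them, and the part of this in the contrast was not tested. End sites as such differed little from inner ones, with 51% and 53.7%, or −1.43 points at like strength, and the sign of this difference turned under 3 other settings (1.98 points with summits under 5 kb apart, 0.66 under 15 kb and 1.22 at a −log10 q of 10).

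RAD21 within chains differed with the direction of the motif. An end site whose motif faced out of the chain had whole-limb RAD21 in 422 of 654 cases, or 64.5% (60.8 to 68.1), and one whose motif faced into the chain in 144 of 380, or 37.9% (33.2 to 42.9). These intervals do not overlap, and the difference was 25.23 points at like CTCF strength, with inward sites at 39.3%. Distal RAD21 was at 47.7% of outward and 25.3% of inward end sites, and SMC1 at 65.6% and 39.5%. This measure was chosen after the data were seen. Under the other settings tried, the weighted difference was 21.79 to 29.24 points.

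Counted over all chain sites with a motif, RAD21 fell with the number of chain sites ahead, that is, on the side the motif faces. With 0 sites ahead, 64.5% had whole-limb RAD21, with 1 site 63.5%, with 2 sites 51.7% (47.2 to 56.1), with 3 sites 41.9% (37.1 to 46.8) and with 4 or more 38.9% (32.8 to 45.3). Sites outside chains at the same strengths stayed between 61.3% and 65.6%. The intervals of the classes with 0 and 1 site ahead include the share outside chains, and those of the other 3 classes lie below it. The other 3 cohesin lists fell in the same order from the first class to the last: distal RAD21 from 47.7% to 24.9%, SMC1 from 65.6% to 32.3%, and RAD21 in delHoxd(8-13)rXII from 44.2% to 22.3%. CTCF itself, measured in a library the rule did not use, was called in delHoxd(8-13)rXII at 82.6% of sites in the first class and 79.9% in the last, with overlapping intervals.

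**Figure D3:**
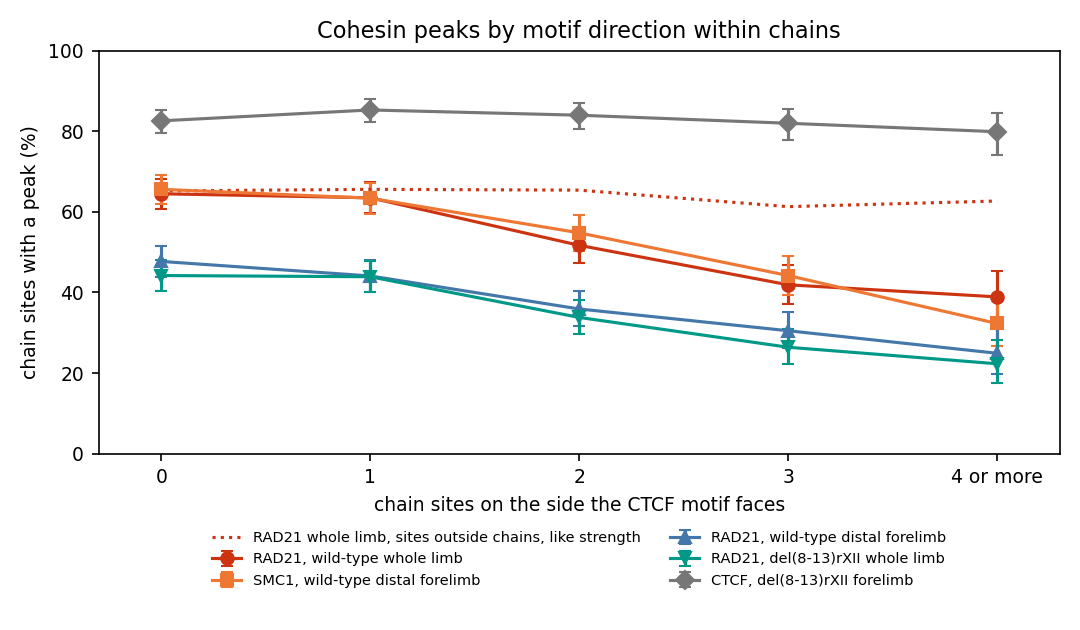
Share of chain sites with a peak (y axis, %) by the number of chain sites on the side the CTCF motif faces (x axis), with Wilson 95% intervals, for 4 cohesin lists and 1 CTCF list. Whole-limb RAD21 drops from 64.5% to 38.9%, while sites outside chains at like CTCF strength (dotted) stay above 61% and CTCF in the rXII allele lies between 79.9% and 85.3%.

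Chains of exactly 4 sites gave the same order. In them the shares of whole-limb RAD21 were 66.4%, 64.4%, 51.5% and 41.1% with 0, 1, 2 and 3 sites ahead, beside 64.8%, 66.2%, 64.9% and 61.9% at like strength outside chains. Without the chains of repeated sequence, sites with 0 ahead had 64.8% and those with 3 or more 39.1%. For introns the pair of values was 59.5% and 32.6%, and for intergenic sites 71.9% and 47.8%. Promoter sites had 49.1% of 55 sites (36.4 to 61.9) and 49.2% of 63 (37.3 to 61.2), and whether they depart from the rest was not tested. These pairs are not at like strength: the median CTCF strength was 27.9 and 20.5 in introns, 32.5 and 28.6 between genes, and 28.2 and 52 at promoters. Counted in another way, by their order from the front among sites facing the same way, chain sites had RAD21 in 59.9% (first), 56.2% (next) and 44.7% of cases (all later ones). By the same count, groups of 3 had 61.9%, 59.7% and 60.7%. Motif sites outside chains, weighted to the strength of each class, had 64%, 65.2% and 64.4% for the chains. For the groups of 3 they had 62.8%, 63.8% and 66%, so later sites in these groups also lay below that share. Of 1285 pairs of successive chain sites that face the same way, 336 had whole-limb RAD21 at the front site alone and 218 at the rear site alone, although the front site had the stronger CTCF peak in 51.1%.

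The RAD21 summit itself was displaced from the motif. At chain sites it lay 21 bp downstream of the motif centre at the median, on the downstream side in 87.9% of 1310 sites (86 to 89.5). Sites outside chains gave 20 bp and 87.7%. The SMC1 summit lay 2 bp from the centre, downstream in 52.2% (49.5 to 54.8).

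Motif directions were ordered in many chains. Of end sites with a motif 63.2% (60.3 to 66.1) faced outward. In 191 chains (31.8%) all minus-strand motifs came before all plus-strand motifs, so that both sides faced away from the middle, and in 60 chains (10%) the order was reversed. A single strand was used in 83 chains, several switches were found in 229, and 37 had under 3 motifs. Sites in minus-then-plus chains had whole-limb RAD21 in 59.3% of cases and those in plus-then-minus chains in 46.9%. Of 449 chains with motifs at both ends, 185 had both ends facing out, and 44.3% of these had RAD21 at both; 61 had both facing in, with RAD21 at both in 13.1%. Neighbouring motifs in chains were on the same strand in 54.7% (52.2 to 57.1), converged in 18.2% and diverged in 27.1%. Other neighbours under 10 kb apart were alike, with 54.4%, 17.6% and 28%, whereas all other neighbours converged in 23.4% and diverged in 24.4%.

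Single chains show the arrangement. Tbx2, a T-box gene that acts in digit patterning, stands in a chain of 8 sites over 27.5 kb (chr11:85823166-85851009), with 3 minus motifs, 1 promoter site without a motif among them, and then 4 plus motifs. Site 1, at the outward left end, had a CTCF strength of 87.3 in whole limbs, 209 in distal and 187 in proximal forelimb, and RAD21 of 104 in whole limbs. At the other end the outermost site was weak, with CTCF of 10.4 and no RAD21, and the next site inward had CTCF of 37.2 and RAD21 of 94.1. RAD21 thus lay at 6 of 8 sites and was strongest near both ends and at site 6, which had 105. At Mmp17, a membrane-anchored matrix metalloproteinase, 3 minus motifs and then 3 plus motifs spanned 36.9 kb (chr5:129583737-129621048). The 3 minus sites had RAD21 strengths of 22.2, 27.3 and 59.9, and of the plus sites the middle one had 48.5 and the others none.

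Ksr2, which encodes a scaffold protein of the Ras pathway, holds 9 intronic sites over 25.8 kb (chr5:117493986-117520198), 7 of them in a row on the plus strand. Along this row the first 4 sites had no RAD21, with CTCF strengths of 15.4, 6.6, 18.7 and 60, and the last 3 had RAD21 of 30, 20.9 and 29.7. Their CTCF strengths were 25.3, 39.7 and 39.3. The site with the strongest CTCF peak of the chain, at 60, was thus without RAD21 and had 4 chain sites on the side it faces. The last site of the chain, on the minus strand and facing inward, had CTCF of 35 and no RAD21, and the first, facing outward, had 44 and RAD21 of 60.5.

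The longest chain, at Rbm19 (chr5:120088556-120151475), a gene of ribosome biogenesis, held 12 sites over 62.6 kb with motifs on both strands. RAD21 was at 6 of them. Between the promoter and the last pair lay 5 adjacent intronic sites. The 4 on the minus strand had CTCF strengths of 4.92, 32.2, 82.5 and 37.5 and no whole-limb RAD21. The plus-strand site among them had CTCF of 26.2 and RAD21 of 14, and was the only one with RAD21 in delHoxd(8-13)rXII (8.04). Distal forelimb gave another picture: the minus-strand site with 82.5 had SMC1 of 12.2, and the plus-strand site had neither SMC1 nor RAD21. At Rpl38 (chr11:114628032-114673155), a ribosomal protein gene known for its part in the translation of Hox mRNAs, RAD21 was at 3 of 11 sites. Near Igha, the constant-region gene at the 3′ end of the immunoglobulin heavy-chain locus, a compact chain of 7 sites over 6.86 kb (chr12:113215971-113223081) had 6 motifs, all on the plus strand. It lay 31.7 kb from Igha on the Tmem121 side, and RAD21 was at 4 of its sites, the first and the last 3.

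**Figure D4:**
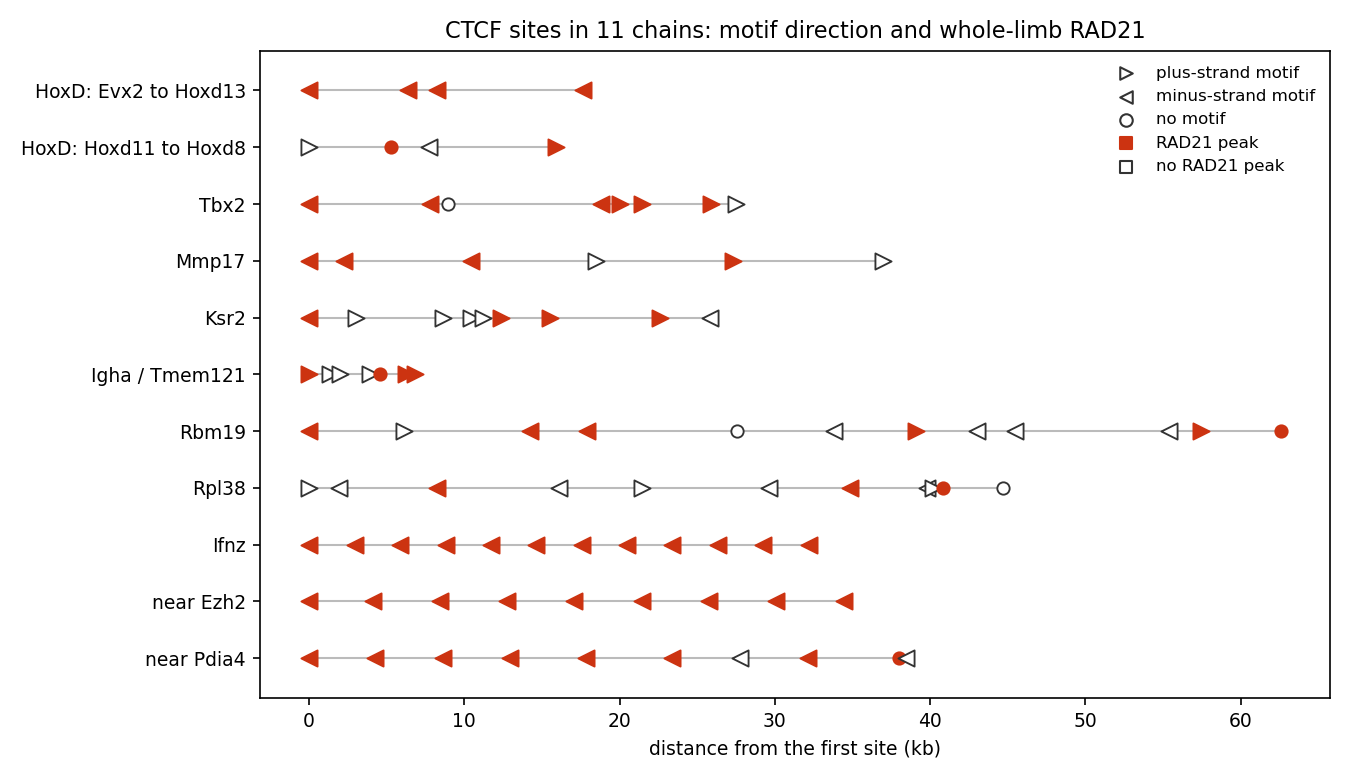
Sites of 11 chains by distance from the first site in kb (x axis), 1 row per chain. Triangles point the way the CTCF motif faces, circles have no motif, and filled symbols have a whole-limb RAD21 peak: 6 of 8 at Tbx2, 4 of 9 at Ksr2, 12 of 12 at Ifnz and 9 of 9 near Ezh2.

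A small class of chains consists of repeated sequence. In 15 chains (2.5%) at least 2 motif windows were 80% identical or more. At Ifnz, in the type I interferon cluster of chromosome 4, 12 minus-strand sites spaced 2901 to 2944 bp apart (chr4:88773635-88806351) were 98% to 100% identical to each other. Their CTCF strengths were 106 to 185, and 11 protein-coding genes start within the chain. All 12 had whole-limb RAD21, but weak, at 3.64 to 9.69, and 3 had distal RAD21 and 3 SMC1. The next chain, 17 kb further at Ifna6, Ifna5 and Ifna4, had 4 minus-strand sites and no peak in any wild-type cohesin list. On chromosome 6, 9 sites on the Ezh2 side (chr6:47650994-47685922) and 10 on the Pdia4 side (chr6:47739930-47778742) were separated by 54.6 kb with 0 consensus sites. Ezh2, the histone H3K27 methyltransferase gene, and Pdia4, for an enzyme of the endoplasmic reticulum, start 55.9 kb and 34.8 kb away from these chains. Whole-limb RAD21 was at 9 of 9 and 8 of 10 sites, distal RAD21 at 9 of 9 and 9 of 10, and SMC1 at 1 site in each. The SMC1 sites were the first on the Ezh2 side, whose motif has other letters, and 1 on the Pdia4 side without a motif. No site with the shared motif letters had an SMC1 peak. Reads from near-identical copies cannot be placed with certainty, and how the authors treated them is not given in the sources used here, so the number of bound copies in these chains is uncertain. At Gm10801 and Gm10800, 4 sites without a motif (chr2:98662182-98667373) had a peak in all 11 lists, whatever the antibody or allele. Their strengths were 42.8 to 124 for whole-limb CTCF and 66.2 to 87.4 for SMC1. Whether these peaks reflect binding of CTCF or cohesin was not tested.

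At the extremes of the cohesin pattern, a few chains had all peaks or none. Among the 18 chains with all 3 wild-type cohesin peaks at every site (3%), the 5 with the strongest CTCF were the motif-free Gm10801 chain and 4 minus-then-plus chains. These stood at Hs1bp3, in Arl15, at 1600014C23Rik and 399554 bp from Zfp536. Among the 16 chains with no wild-type cohesin peak (2.67%), the 5 with the strongest CTCF lay at Fam227a and Cby1, in Espn, at the Ifna genes above, at Sh2b1 and at Insc. Their median strengths were 19.8 to 28, and those of the other 5 were 56.5 to 88. The 88 is that of the Gm10801 chain, whose peaks lack a motif and occur in every list. The motifs at Fam227a, Espn and Insc switched strand several times, those at Ifna kept 1 strand, and Sh2b1 had 2 motifs.

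Genes were dense in the chains, and the shares of the gene lists are to be read beside the 1.6% of all protein-coding genes. HoxD (33.3%), clustered protocadherins (17.5%) and clustered histone genes (8.96%) lay above it, and limb patterning genes (2.5%) near it. For lists of 6 to 111 genes a count of 0 cannot be told apart from that share. A TSS lay inside 228 chains (38%), 217 lay within a gene without a TSS, and 155 overlapped none. In all, 332 of 20807 protein-coding genes (1.6%) started in a chain and 596 (2.86%) within 10 kb of one. Chains held 32.5 TSSs per Mb and the autosomes 8.45, although consensus sites themselves lie near genes and this was not adjusted for. Of the 12 genes of the HoxD list 4 started in a chain and 9 within 10 kb, whereas it was 0 of 12 at HoxA, 0 of 10 at HoxB and 0 of 9 at HoxC for both measures. Of 40 limb patterning genes 1 did (Tbx2), of 6 neural genes 1 (Neurog2, a proneural factor), and of 13 chondrogenesis, 8 muscle, 6 endothelial, 6 blood and 6 surface ectoderm genes 0. Clustered protocadherins, surface proteins of neurons whose promoters are known to bind CTCF, had 10 of 57, all in the Pcdhg cluster. Clustered histone genes had 6 of 67, all of them Hist2 genes in 2 chains of chromosome 3. Zfp genes had 1 of 388 (Zfp335). No member was found among 27 imprinted genes, 10 globins, 1128 olfactory receptors, 329 vomeronasal receptors, 111 keratins and keratin-associated proteins, 34 histocompatibility genes or 13 genes of CTCF and cohesin. At a limit of 5 kb the share of all genes in chains was 0.226%, and at 15 kb 4.66%.

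In the Pcdhg cluster 1 chain of 7 weak sites, with a median strength of 9.53, and 1 of 4 sites, with 21, held 6 and 4 gene starts. Motifs passed the limit at 1 and 2 of their sites, all on the plus strand. RAD21 was found at 3 sites of each in whole limbs and at 0 and 2 in distal forelimb.

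In the HoxD alleles chain sites were called at rates close to those of other sites. In delHoxd(8-13)d11lac 98.6% of chain sites had a CTCF peak (98.8% of all consensus sites; 99.1% of other sites at like strength). The shares were 80.3% (77.2% and 81.4%) in delHoxd(8-13)rXII, 89.4% (87.4% and 90.2%) in delHoxd(1-13)d9lac and 92.1% (90.5% and 92.8%) in delHoxd(attP-rel5)d9lac. Against others of their strength, chain sites thus differed by −0.52 to −1.04 points. The allele with the lowest share also differed in assay and tissue, which cannot be told apart from genotype. When every list was held to a −log10 q of 10, its share was 43.6%, which is not an equal limit across lists, since the median strength was 7.15 in this list and 31 in delHoxd(8-13)d11lac.

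Sites without a mutant peak outside HoxD were weak. They numbered 33 in delHoxd(8-13)d11lac, 530 in delHoxd(8-13)rXII, 285 in delHoxd(1-13)d9lac and 207 in delHoxd(attP-rel5)d9lac, with wild-type strengths of at most 13.1, 38.9, 19.6 and 18.2. Among all consensus sites 1.25%, 22.8%, 12.6% and 9.48% were without a peak in these alleles. None of the 675 chain sites outside HoxD with a strength of at least 50 was missing in any allele. At HoxD 5, 6, 4 and 7 chain sites were missing, and in each allele 3 of them had a strength of at least 50. These 3, the Hoxd13 side, the Hoxd11 intron and the Hoxd8 side, lie in the stretch from Hoxd13 to Hoxd8. All allele names but delHoxd(attP-rel5)d9lac give this stretch as deleted, so a missing peak there is no measure of lost binding. Outside HoxD 2072 chain sites were called in all 4 alleles, and 18, with a median strength of 4.46, in none.

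**Figure D5:**
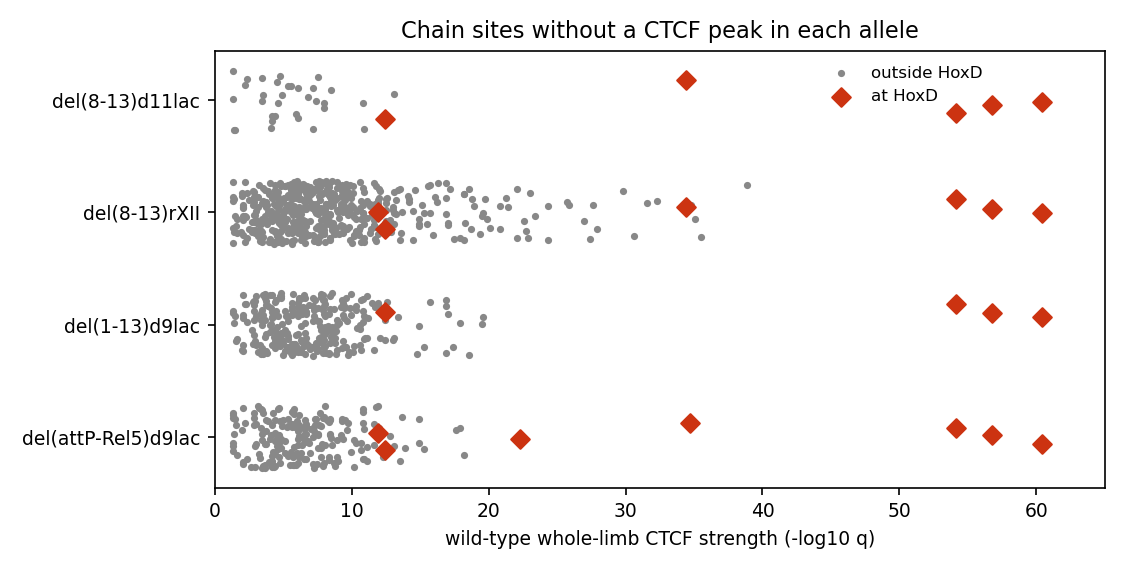
Wild-type whole-limb CTCF strength (x axis, −log10 q) of each chain site without a CTCF peak in each allele (rows; the height within a row is random). Outside HoxD (small points) the strongest has 38.9, while at HoxD (diamonds) 3 in each allele lie between 54.1 and 60.4. These 3 lie in the stretch from Hoxd13 to Hoxd8, which all allele names but delHoxd(attP-rel5)d9lac give as deleted.

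Counted by chain, all sites were called in 567, 247, 373 and 419 of 600 chains in the same order of alleles, and 580, 324, 422 and 477 still held 4 linked sites. Outside HoxD 1 chain was missing whole, in delHoxd(8-13)rXII. It covers Hist2h3c2 to Hist2h3c1 (chr3:96238525-96247247), genes for core histones, and its 4 sites had wild-type strengths of 1.36 to 5.3. Among the chains with most missing sites in that allele were those at Irx2, an Iroquois homeobox gene, with 1 of 5 sites called, and Cbx8, a Polycomb gene, with 3 of 7. In delHoxd(8-13)d11lac the same chains had 5 of 5 and 7 of 7, and in delHoxd(1-13)d9lac 4 of 5 and 7 of 7. In delHoxd(attP-rel5)d9lac they had 4 of 5 and 4 of 7. The median wild-type strengths of these 2 chains were 13.4 and 10.7. Mutant CTCF peaks that overlapped no wild-type CTCF peak numbered 12, 19, 4 and 4 in all chains. They were 0.437%, 0.828%, 0.163% and 0.156% of the mutant peaks in chains, against 7.06%, 4.6%, 5.15% and 2.88% on all autosomes. The rule itself leaves few such peaks in chains, so the lower shares are no result about the chains. Chain sites with whole-limb RAD21 had RAD21 in delHoxd(8-13)rXII in 66.6% of cases (66% of all consensus sites with RAD21; 66.7% of other sites at like RAD21 strength).

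HoxD is covered by 2 chains of 4 sites, which hold 8 of its 9 consensus sites. The first runs from Evx2, which encodes a homeobox factor and flanks the Hoxd genes, to the Hoxd13 side (chr2:74655315-74673330), and the second from the Hoxd11 intron to the Hoxd8 side (chr2:74686323-74702605). The gap between them was 13345 bp, and the ninth site, in an intron of Hoxd3, lay 13530 bp beyond. With summits under 5 kb apart, or with chains of 5 sites or more, none of them was in a chain. With summits under 15 kb apart all 9 sites were in chains. Both gaps lie below that limit, so the 2 chains and the ninth site then join. At the limit of 10 kb HoxD is a common case in size, 2 of 410 chains of 4 sites, with spans of 17.6 and 15.9 kb beside the median of 16.2. This size follows from the limit, and how common the joined chain is at 15 kb was not tested.

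The first HoxD chain had 4 minus-strand motifs (shown above), which face the centromeric side. The Evx2 UTR site had a CTCF strength of 22.3 in whole limbs, 145 in distal and 78.8 in proximal forelimb. The sites upstream of Evx2 had 11.9 and 34.7 in whole limbs, and the Hoxd13 side 54.1. RAD21 of whole limbs was at all 4, with 9.52, 89.6, 67.6 and 41.7 in this order, and did not follow CTCF strength: the weakest CTCF site had the strongest RAD21. In distal forelimb the Evx2 UTR site had no RAD21, the next 2 had 5.8 and 22.8, and the Hoxd13 side had 11. SMC1 was at the 2 sites upstream of Evx2, with 4.95 and 19.8.

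In the second HoxD chain the motifs were plus, none, minus and plus. CTCF strengths in whole limbs were 56.8 in the Hoxd11 intron, 12.4 at the Hoxd10 promoter, 34.4 in the Hoxd10 coding exon and 60.4 on the Hoxd8 side. RAD21 was at the promoter, with 49.6, and on the Hoxd8 side, with 46.3, and at neither of the others. In distal forelimb these 2 sites had RAD21 of 4.19 and 14.3, and SMC1 was in the Hoxd11 intron, with 3.47, and on the Hoxd8 side, with 6.73. The Hoxd8 side is the outward end, and the Hoxd11 intron, which faces into the chain and had SMC1 but no RAD21, is the inward one. In the first chain, by contrast, the Hoxd13 side had RAD21 with 3 chain sites ahead, a class with 41.9% over all chains. The Hoxd3 site, in no chain, had RAD21 of 159 in whole limbs and 62.7 in distal forelimb, the highest of the 9.

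In the alleles, delHoxd(8-13)d11lac had CTCF peaks at the 3 sites of the Evx2 region, with 42.3, 38.2 and 87.1. It had none from the Hoxd13 to the Hoxd8 side, a stretch that its name gives as deleted. In delHoxd(8-13)rXII the Evx2 UTR and the second upstream site were called, with 7.56 and 12.9, and RAD21 was at the latter with 16.1. In delHoxd(1-13)d9lac the 3 Evx2 sites had 42.1, 9.72 and 39.6, and in delHoxd(attP-rel5)d9lac none of the first chain was called. The Hoxd10 coding exon had a peak in both alleles that carry d9lac, with 26.3 and 35, and in neither of the others, and whether it arises from the reporter was not tested. Apart from the 2 HoxD chains, no chain had a missing site with a wild-type strength above 38.9 in any of the 4 alleles.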

How the data were processed

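The members, the 22 gene lists and the comparisons were chosen with earlier results of these data known. The result of 1 of the lists is not reported here. The submitters' processing notes name cutadapt, Bowtie2, MACS2 and the build mm10 without versions. The deposited files were narrowPeak lists, 1 per sample, with 5 value columns. Their score is a whole number given by the authors. The ratio is the fold enrichment at the summit, also given by the authors, and was not used. The −log10 p-value and −log10 q-value of each summit were computed by the authors, and the −log10 q depends on depth, which is unknown, so values of different lists are not on 1 scale. Strength bins used the whole-limb CTCF list alone, and a −log10 q of at least 10 in every list is not an equal limit.

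Rows of 1 region with several summits were merged, keeping the strongest, and peaks of different lists were joined by an overlap of at least 1 bp. Coordinates are 1-based. Genes came from GENCODE M21 and sequence from RefSeq GRCm38.p6, of the same build. Shares have Wilson 95% intervals, and like strength means weighting over 20 bins of whole-limb −log10 q. Scripts used Python 3.11.15, numpy 2.4.6, scipy 1.17.1, pysam 0.24.0 and matplotlib 3.10.9 and were tested on simulated data. Alternatives were linking at 5 or 15 kb, chains of 5 or more, a −log10 q of at least 10, 50% cover, summits within 200 bp, motifs within 100 bp and no weighting.

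Chains were named by the TSSs inside, else by the gene around them, else by the nearest TSS, passing over predicted genes. Named were the HoxD chains, the 10 with most sites, up to 4 per gene list, and 5 each for no cohesin, cohesin at every site, most missing sites per allele, repeated windows, 1 strand and minus-then-plus order, and those nearest to the 10 kb limit. Igha was named after its chain was seen. Motif direction within chains, RAD21 summit offsets and the alternative without repeated chains were chosen after the data were seen.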

Additional observations from a re-analysis of the deposited data

How the results depend on the processing

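Over 16 results and 117 alternatives, 81 values stayed within the counting interval of the main value or, for a count, within 1.5 times, and 36 moved. The difference between end and inner sites, −1.43 points, turned sign at 5 kb (1.98), at 15 kb (0.66) and at a −log10 q of at least 10 (1.22), all within its counting interval. Linking at 5 kb gave 118 chains with 521 sites, whole-limb RAD21 at 59.3%, distal RAD21 at 42%, a weighted difference of −1.10 points to other sites, same-strand neighbours at 58.6%, delHoxd(8-13)d11lac CTCF at 97.9%, 0.226% of genes and 0 HoxD sites in chains. Linking at 15 kb gave 1253 chains with 6092 sites, 99% in delHoxd(8-13)d11lac and 4.66% of genes. Chains of 5 or more numbered 190 with 1083 sites, 48.1% whole-limb RAD21, 33.7% distal RAD21, 47.5% SMC1, a difference of −10.79 points, 0.697% of genes and 0 HoxD sites. A −log10 q of at least 10 left 272 chains with 1193 sites, 33.4% distal RAD21, 40.4% SMC1, same-strand neighbours at 58.8%, 0.682% of genes, and CTCF at 99.3% in delHoxd(8-13)d11lac, 43.6% in delHoxd(8-13)rXII and 93.8% in delHoxd(attP-rel5)d9lac, with RAD21 kept in delHoxd(8-13)rXII at 57.2%. At least 50% cover gave 33.7% distal RAD21, 46.4% SMC1, 71.2% CTCF in delHoxd(8-13)rXII and 63.7% RAD21 kept. Without weighting the difference was −3.81 points. The cause was not tested. No paired analysis was possible because each group is 1 library, which also means that no replicate could be left out. Depth is unknown, so weak sites without a peak may be undetected.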
